A study of Mus musculus with 8 samples.

Results

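The 7 genes described here encode the feedback arm of cyclic GMP synthesis and the complex that switches transducin off in mouse photoreceptors. They were taken by symbol from a deposited table of 26824 genes and are the retinal guanylate cyclases Gucy2e and Gucy2f, the guanylate cyclase activating proteins Guca1a and Guca1b, and the RGS9 complex of Rgs9, Rgs9bp and Gnb5. All 7 were found, and all passed the filter on low counts that left 20167 genes for testing. RNA sequencing of whole retina compared 3 libraries labelled WT (WT 1 to WT 3) with 5 labelled Kv8.2 KO (KO 2 to KO 6). Each library held 2 pooled retinas from individual untreated mice, and the series text gives an age of 1 month for both genotypes. Kv8.2 is the product of Kcnv2, a potassium channel subunit of photoreceptors; strain and sex and the kind of knockout allele are not given in the sources used here. The series text states that 2 KO samples were excluded by its authors without naming them, so all 8 libraries were compared.

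Light closes the cyclic GMP-gated channels of the outer segment, and internal calcium falls. The activating proteins, also called GCAPs, sense that fall and stimulate the membrane guanylate cyclases, which rebuild cyclic GMP and reopen the channels. In parallel, RGS9 speeds the hydrolysis of GTP on transducin, which ends phosphodiesterase activity; Gnb5, an atypical G protein beta subunit, stabilises RGS9, and Rgs9bp (R9AP) anchors the complex to the disc membrane. These steps set how quickly rods and cones recover from light, and loss of the RGS9 complex in people slows that recovery.

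On GRCm38, the GENCODE M21 annotation places Gucy2e on the minus strand of chromosome 11 (69218117 to 69237036) and Gucy2f on the minus strand of chromosome X (142081160 to 142196931). Guca1b (chromosome 17, 47385393 to 47392967, plus strand) and Guca1a (chromosome 17, 47394558 to 47400584, minus strand) lie tail to tail with 1590 bases between them. Rgs9 is on chromosome 11 (109225355 to 109298129, minus strand), Rgs9bp on chromosome 7 (35578993 to 35585582, minus strand, 1 exon) and Gnb5 on chromosome 9 (75306288 to 75345876, plus strand). Between 0% and 3.21% of the 31-base words in a gene's transcripts also occurred in another gene, the highest share being that of Rgs9, so the annotation gave no near-identical copy that could divide the counts. The Gnb5 locus overlaps 2 antisense genes (Gm19531 and Gm48677), and whether counting used strand is not given in the sources used here. Counts were per gene, so the retinal and brain forms of Rgs9 and the short and long forms of Gnb5 were not separated.

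The promoters of 4 of the genes are shown because their levels carry the results below: the paralogs Gucy2e and Gucy2f, whose fold changes had opposite signs in the comparison of all libraries, Guca1a, with the highest fold change in that comparison, and Rgs9, which was above WT in every library labelled KO. Each runs from 250 bases before to 50 after the RefSeq start on GRCm38.p6, on the gene's own strand. They span chr11:69236973-69237272 (Gucy2e), chrX:142196887-142197186 (Gucy2f), chr17:47400557-47400856 (Guca1a) and chr11:109298132-109298431 (Rgs9). Capitals mark TAATCC, the core of sites bound by the photoreceptor factors CRX and OTX2, and TGCTGA, a core of sites bound by NRL and other MAF proteins, each read on both strands, so that GGATTA and TCAGCA mark the opposite strand.
Gucy2e: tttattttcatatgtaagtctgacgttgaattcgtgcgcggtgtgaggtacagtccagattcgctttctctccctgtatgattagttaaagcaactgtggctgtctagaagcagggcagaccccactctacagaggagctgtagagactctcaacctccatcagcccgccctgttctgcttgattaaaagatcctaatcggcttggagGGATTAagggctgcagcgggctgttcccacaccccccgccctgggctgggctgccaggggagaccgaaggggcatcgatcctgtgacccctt
Gucy2f: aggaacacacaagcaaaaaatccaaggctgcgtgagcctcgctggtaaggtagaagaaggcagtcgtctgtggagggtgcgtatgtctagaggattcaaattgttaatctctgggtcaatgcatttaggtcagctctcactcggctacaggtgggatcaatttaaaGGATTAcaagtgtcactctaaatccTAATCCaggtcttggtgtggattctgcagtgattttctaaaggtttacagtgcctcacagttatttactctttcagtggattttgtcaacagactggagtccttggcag
Guca1a: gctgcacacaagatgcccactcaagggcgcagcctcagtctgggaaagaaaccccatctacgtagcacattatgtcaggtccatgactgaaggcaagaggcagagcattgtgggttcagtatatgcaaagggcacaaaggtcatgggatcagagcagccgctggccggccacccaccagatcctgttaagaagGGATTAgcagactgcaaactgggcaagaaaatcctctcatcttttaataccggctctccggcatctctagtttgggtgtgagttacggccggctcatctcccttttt
Rgs9: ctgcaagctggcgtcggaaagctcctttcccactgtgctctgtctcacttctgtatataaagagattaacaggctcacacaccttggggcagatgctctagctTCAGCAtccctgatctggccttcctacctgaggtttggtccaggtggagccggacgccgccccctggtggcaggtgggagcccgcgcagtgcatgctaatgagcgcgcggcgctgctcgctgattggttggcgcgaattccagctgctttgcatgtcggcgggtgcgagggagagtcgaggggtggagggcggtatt

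Promoters were listed for 5 of the 7 genes, the fifth being Gnb5; Guca1b and Rgs9bp had no entry. TAATCC occurred in 4 of the 5 (Gucy2e, Gucy2f, Guca1a and Gnb5), against 7.06% of 32851 promoters of the same length. Gucy2f held it 2 times, 84 and 59 bases before the start, Guca1a 57 bases and Gucy2e 42 bases before it. TGCTGA occurred in 1 of the 5, that of Rgs9, 147 bases before the start, against 19.5% of all promoters. The Rgs9 window lies wholly upstream of the GENCODE gene, and its last bases were not found near the start of any GENCODE transcript of Rgs9, as they were for the other 4 genes, so its position rests on the RefSeq start alone. These matches describe the sequence and were not tested as binding sites.

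The libraries held 17759146 to 25188870 counts, of which the 7 genes made up 0.490% to 0.505% under the WT label and 0.459% to 0.616% under the KO label. Each gene had at least 4430 counts in every library, so counting alone gave a small error. Kcnv2 measured 519, 551 and 526 CPM (counts relative to library size, with TMM scaling) over WT 1 to WT 3, against 585, 447, 398, 409 and 409 CPM over KO 2 to KO 6. The log2 fold change was -0.24 (SE 0.14, edgeR adjusted p-value 0.275). Its call depended on the tool and the libraries. With all libraries limma voom with quality weights called it lower (-0.36, adjusted p-value 0.00117). In edgeR it was called lower without KO 2 (-0.35, adjusted p-value 0.0298) and for KO 4 to KO 6 (-0.38, adjusted p-value 0.000116). It was not called for KO 2 and KO 3 (-0.04, edgeR adjusted p-value 0.903), nor with KO 2 and 1 of KO 4 to KO 6 left out (edgeR adjusted p-values 0.0814 to 0.0973). No library lacked the transcript, so the KO libraries are called by their labels only. The libraries labelled KO comprised KO 4 to KO 6, which were alike, and KO 2 and KO 3, which differed from them and from each other. In KO 4 to KO 6 mitochondrial genes took 3.03% to 3.70% of the counts, against 5.23% to 7.92% in the other 5 libraries. Chi-square over degrees of freedom was 5.85 to 6.92 between pairs of KO 4 to KO 6 and 8.20 to 17.8 between pairs of WT, against 44.0 to 116 for pairs with KO 2 or KO 3 within the KO label. The low mitochondrial share and the KO label cannot be told apart in KO 4 to KO 6, since no WT library has such a share. KO 3 also held lens transcripts, at 4.26% of its counts against at most 0.143% elsewhere. Values are therefore also given with either set of libraries labelled KO set against the 3 WT libraries, which both sets share. The defining markers of rods, cones, bipolar, Muller glia, amacrine, horizontal and ganglion cells were all in the table, and each was above 1 CPM in at least 1 library. Summed horizontal cell markers (4 of 4 detected) were at 114 to 118 CPM in WT and 77.3 to 113 CPM in the libraries labelled KO, and summed microglia markers (5 of 5 detected) at 16.6 to 19.8 and 22.7 to 32.6 CPM. Summed cone markers (6 of 6 detected) were at 741 to 928 CPM in WT and 553 to 759 CPM in the libraries labelled KO, with overlap. The sum of 5 rod markers (Nrl, Nr2e3, Gnat1, Pde6b and Cnga1, all detected) was at 12688 to 13954 CPM in WT and 15646 to 16813 CPM in KO 4 to KO 6, and it was highest in KO 2 (18342) and lowest in KO 3 (11526), as were Gucy2e and Rgs9bp. This sum left out 1 of the 6 listed rod markers, whose level is not reported here. With that marker included, KO 4 to KO 6 overlapped WT, and KO 2 was again highest and KO 3 lowest. Gnat1 made up most of the sum of 5, and Nrl alone was below WT in every library labelled KO. In KO 4 to KO 6, Gnat1 and Pde6b were above WT, Nr2e3 overlapped it, and Cnga1 was below it (752 to 767 CPM against 863 to 1013 CPM). The part of these markers in the results was not tested.

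With all 8 libraries, none of the 7 genes was called as different by edgeR's quasi-likelihood test at an adjusted p-value under 0.05, a threshold that 7.58% of all tested genes passed. At an unadjusted p-value under 0.05 there were 3 of 7, Guca1a, Guca1b and Rgs9, all higher in the libraries labelled KO, where 27.3% of all tested genes were under that value. DESeq2 called the same 3 genes higher, where it called 3034 of the 17358 genes it gave an adjusted p-value (17.5%, with 11.3% higher and 6.18% lower). The limma voom fit with library quality weights called these 3 higher and Gucy2f lower, where it called 8248 genes, or 40.9% (20.3% higher and 20.6% lower), so a large share of all genes was called there too. The calls depended on whether KO 2 and KO 3 were included. Without KO 3, edgeR called Guca1a, Guca1b and Rgs9 higher, in a fit that called 20% of all tested genes (12.2% higher and 7.85% lower). Without KO 2 it called Gucy2f lower, in a fit that called 13.9% (7.66% higher and 6.23% lower), so more genes were called over the whole table in both. KO 4 to KO 6 against WT gave 3 higher and 1 lower of 7, in a comparison that called 42.8% of all tested genes (22.3% higher and 20.5% lower), and KO 2 and KO 3 against WT gave 0 of 7, with 0 of 7 at an unadjusted p-value under 0.05, in one that called 0.891% (0.624% higher and 0.267% lower) and had 19% under 0.05 unadjusted. Whole retina was sampled, so in each case fewer cells of a type and less RNA per cell cannot be told apart.

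**Figure D1:**
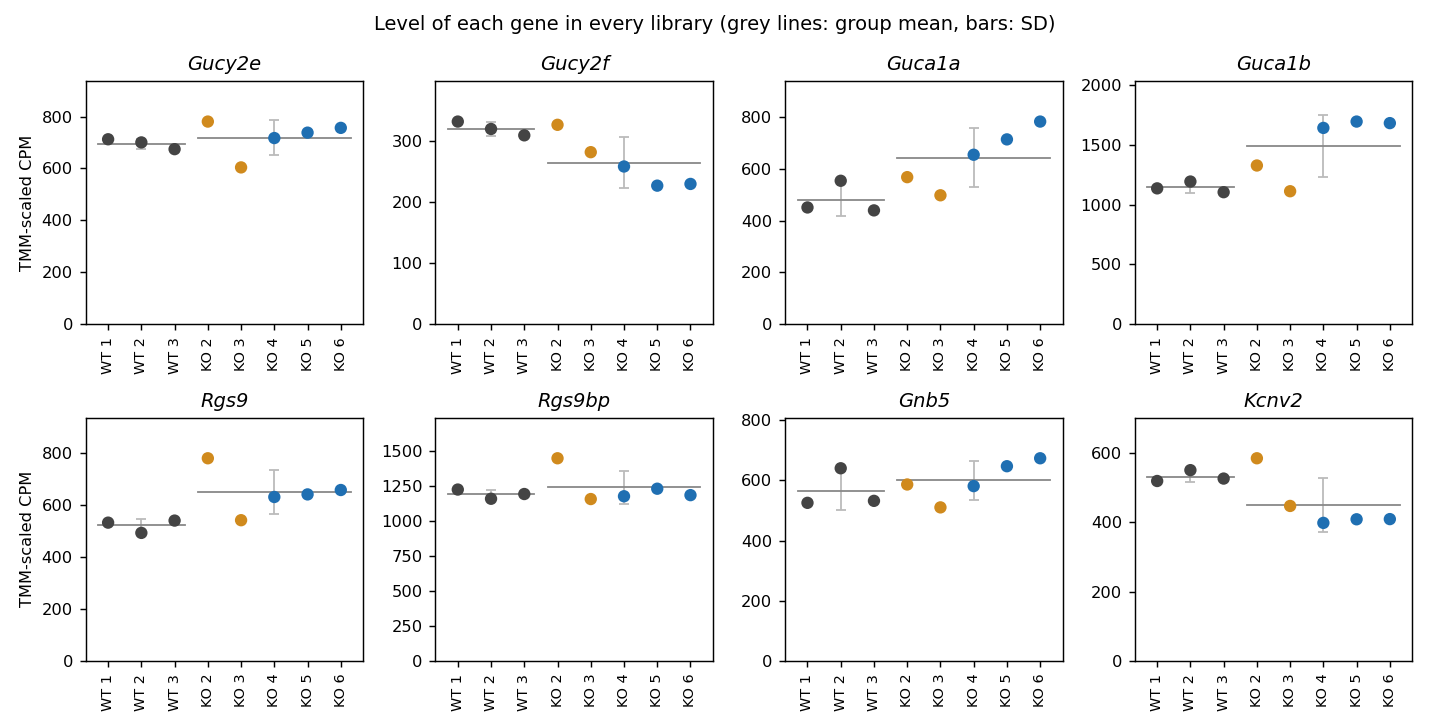
TMM-scaled CPM (y axis, from 0) of the 7 genes and Kcnv2 in every library (x axis), with WT in dark grey, KO 2 and KO 3 in orange and KO 4 to KO 6 in blue; grey lines are group means and bars the SD. For Rgs9 every library labelled KO is above every WT library, as for 10.8% of all tested genes. For Gucy2f, Guca1a and Guca1b, KO 4 to KO 6 lie apart from WT and at least 1 of KO 2 and KO 3 lies within the WT range. KO 4 to KO 6 also lie apart from WT for Gucy2e and Kcnv2, where KO 2 is above and KO 3 below the WT range. In edgeR, KO 4 to KO 6 against WT called 42.8% of all tested genes. The share of genes whose KO 4 to KO 6 libraries lie apart from WT was not counted.

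Gucy2e encodes the main cyclase of cones and a major cyclase of rods, and its level differed little between the labels. Its transcript measured 713, 701 and 674 CPM over WT 1 to WT 3, against 781, 604, 717, 738 and 757 CPM over KO 2 to KO 6. The groups overlapped, because KO 3 was the lowest of all libraries while the other 4 libraries labelled KO were above WT. The mean was 696 ± 19.4 CPM over WT (SD, n = 3) against 719 ± 68.5 CPM under the KO label (SD, n = 5), a fold change of 1.03 with a 95% confidence interval of 0.875 to 1.22. On the log2 scale this was 0.05 (SE 0.11), with 0.814 as edgeR's adjusted p-value. It was 0.09 (SE 0.06, edgeR adjusted p-value 0.195) for KO 4 to KO 6, all 3 of which were above WT, -0.01 for KO 2 and KO 3, and -0.08 after correction for GC content. It was above 0 in 26 of 32 alternative fits and called in none.

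Gucy2f encodes the second rod cyclase and had the lowest level per length of the 7 genes. The libraries WT 1 to WT 3 held 331, 319 and 309 CPM, against 326, 281, 258, 226 and 229 CPM over KO 2 to KO 6. KO 2 lay within the WT range and the other 4 libraries labelled KO below it. The mean was 320 ± 11.2 CPM over WT (SD, n = 3) against 264 ± 41.2 CPM under the KO label (SD, n = 5), a log2 fold change of -0.28 (SE 0.13, adjusted p-value 0.195 in edgeR), or a fold of 0.826 with a 95% interval of 0.678 to 1.01. For KO 4 to KO 6 it reached -0.42 (SE 0.06, edgeR adjusted p-value 0.000197), and for KO 2 and KO 3 it was -0.07 (SE 0.12, edgeR adjusted p-value 0.773). Without KO 2 it was -0.36, with an edgeR adjusted p-value of 0.0431.

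Guca1a encodes GCAP1, a calcium sensor of rods and cones that activates the cyclases, and had the highest fold change of the 7 genes with all libraries and no GC correction, while Rgs9 had the highest with that correction and for KO 2 and KO 3. Its transcript measured 451, 554 and 439 CPM over WT 1 to WT 3, against 568, 498, 654, 714 and 782 CPM over KO 2 to KO 6. KO 3 was within the WT range, and KO 2 was close to WT 2, the highest WT library. The mean was 481 ± 63.0 CPM over WT (SD, n = 3) against 643 ± 113 CPM under the KO label (SD, n = 5). This made 0.42 on the log2 scale (SE 0.16, adjusted p-value 0.119 in edgeR), or a fold of 1.34 with a 95% interval of 1.05 to 1.70 that is not adjusted for the number of genes tested. It was 0.59 (SE 0.09, edgeR adjusted p-value 0.000249) for KO 4 to KO 6 and 0.15 (edgeR adjusted p-value 0.627) for KO 2 and KO 3. Without KO 3 it was 0.51, with an edgeR adjusted p-value of 0.0230.

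Guca1b encodes GCAP2, the second activator, found mainly in rods, and its counts followed those of Guca1a. The libraries WT 1 to WT 3 held 1135, 1192 and 1103 CPM, against 1326, 1111, 1640, 1693 and 1680 CPM over KO 2 to KO 6. KO 4 to KO 6 formed a narrow group above all others, KO 2 was above WT by a smaller margin, and KO 3 lay within the WT range. The mean was 1144 ± 45.0 CPM over WT (SD, n = 3) against 1490 ± 260 CPM under the KO label (SD, n = 5), a log2 fold change of 0.38 (SE 0.15, adjusted p-value 0.131 in edgeR) and a 95% interval of the fold of 1.04 to 1.64. It was 0.56 (SE 0.06, edgeR adjusted p-value 1.52e-05) for KO 4 to KO 6 and 0.09 (edgeR adjusted p-value 0.778) for KO 2 and KO 3. Without KO 3 it was 0.48, with an edgeR adjusted p-value of 0.0134. Across the 8 libraries, log2 CPM of Guca1a and Guca1b had a Pearson correlation of 0.948, the highest of any pair of the 7 genes; the points share library and depth, and 3 of them are KO 4 to KO 6.

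Rgs9 encodes the GTPase-activating subunit of the complex and was the only 1 of the 7 genes with every library labelled KO above every WT library, which held for 10.8% of all tested genes; 20.9% had the groups apart in either direction. Its transcript measured 531, 492 and 539 CPM over WT 1 to WT 3, against 779, 541, 630, 640 and 657 CPM over KO 2 to KO 6. The margin was small in KO 3, whose 540.8 CPM compared with 539.3 CPM in WT 3, and large in KO 2, the highest library. The mean was 521 ± 25.3 CPM over WT (SD, n = 3) against 649 ± 85.3 CPM under the KO label (SD, n = 5), a log2 fold change of 0.32 (SE 0.12, adjusted p-value 0.130 in edgeR) and a fold of 1.25 with a 95% interval of 1.03 to 1.51. The log2 fold change was 0.31 (SE 0.06, edgeR adjusted p-value 0.000856) for KO 4 to KO 6. For KO 2 and KO 3 it was 0.34 (SE 0.17, edgeR adjusted p-value 0.314), a mean of 2 unlike libraries, of which KO 2 was far above WT and KO 3 barely above it. Without KO 2 it was 0.24, with an edgeR adjusted p-value of 0.104. Without KO 3 it was 0.38, with an edgeR adjusted p-value of 0.0205. Over 32 alternative fits it stayed between 0.22 and 0.41 on the log2 scale and was called in 7.

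Rgs9bp, the membrane anchor, and Gnb5, the beta subunit that RGS9 needs for stability, showed no such separation. Rgs9bp measured 1227, 1161 and 1195 CPM over WT 1 to WT 3, against 1451, 1159, 1179, 1233 and 1187 CPM over KO 2 to KO 6. KO 2 stood above the other 7 libraries, which all lay between 1159 and 1233 CPM. The means were 1195 ± 33.0 CPM over WT (SD, n = 3) against 1242 ± 120 CPM under the KO label (SD, n = 5), a log2 fold change of 0.06 (SE 0.11, edgeR adjusted p-value 0.776) that was -0.01 without KO 2. The 95% interval of the fold was 0.883 to 1.22.

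Gnb5 measured 525, 640 and 532 CPM over WT 1 to WT 3, against 586, 510, 581, 647 and 673 CPM over KO 2 to KO 6. The groups overlapped widely, with WT 2 among the highest libraries and KO 3 the lowest. The means were 566 ± 64.5 CPM over WT (SD, n = 3) against 600 ± 63.7 CPM under the KO label (SD, n = 5), a log2 fold change of 0.08 (SE 0.12, edgeR adjusted p-value 0.699) and a 95% interval of the fold of 0.878 to 1.28. It was 0.17 (SE 0.08, edgeR adjusted p-value 0.109) for KO 4 to KO 6, -0.04 for KO 2 and KO 3 and -0.01 after correction for GC content. Gnb5 is also used by other RGS proteins in bipolar cells and other neurons, so its count in whole retina is not that of the photoreceptor complex alone.

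**Figure D2:**
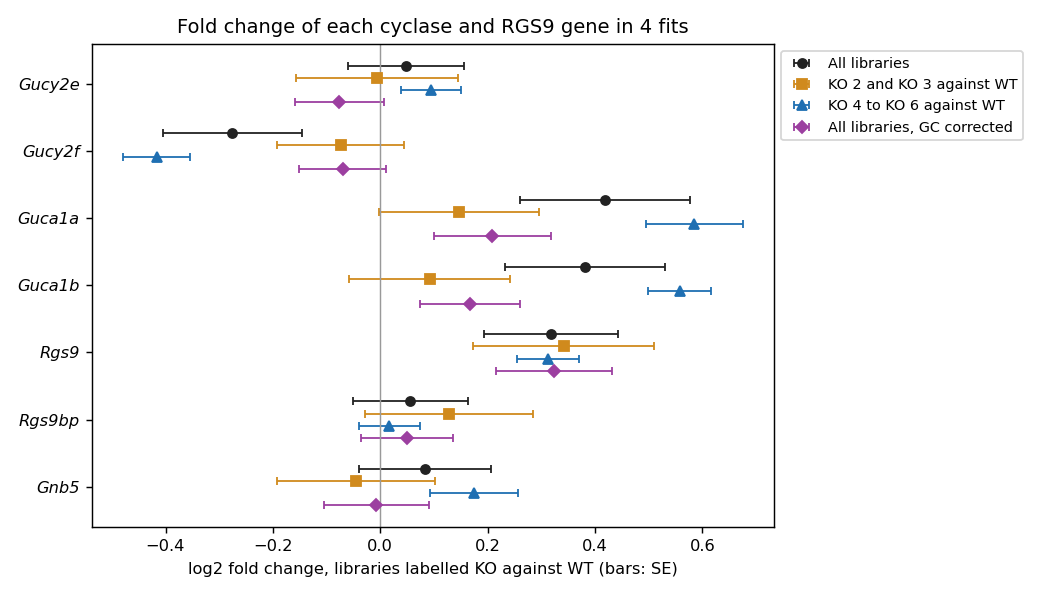
Log2 fold change of the libraries labelled KO against WT (x axis; bars are SE) for the 7 genes (y axis) in 4 fits: all libraries, KO 2 and KO 3 against WT, KO 4 to KO 6 against WT, and all libraries with correction for GC content. Rgs9 lies between 0.31 and 0.34 in these 4 fits, with its widest error for KO 2 and KO 3, while Guca1a ranges from 0.15 to 0.59, Guca1b from 0.09 to 0.56 and Gucy2f from -0.42 to -0.07.

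GC content of the transcript was 55.9% for Guca1b and 55.7% for Guca1a, which had the highest fold changes with all libraries, and 42.0% for Gucy2f, which had the lowest. The other 4 genes did not follow this order: Gucy2e, Gnb5 and Rgs9bp, at 52.6%, 51.4% and 48.7%, had log2 fold changes of 0.05, 0.08 and 0.06, below the 0.32 of Rgs9, at 48.2%. The correction was made in each library over the 18028 genes with a GC content, and its effect is given against the same genes without it. The log2 fold change went from 0.41 to 0.21 for Guca1a, from 0.37 to 0.17 for Guca1b and from -0.29 to -0.07 for Gucy2f. That of Rgs9 went from 0.31 to 0.32 (SE 0.11, edgeR adjusted p-value 0.0953 after correction). None of the 7 was called after correction, when 7.34% of genes were (4.24% higher and 3.10% lower), and 1 of 7 was under 0.05 unadjusted, as were 25.4% of all genes in that fit, against 4 of 7 and 28.7% for the same genes without the correction. For KO 2 and KO 3 with the correction, Rgs9 was at 0.33, and the other 6 genes were between -0.09 and 0.11.

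Levels between genes were compared per kilobase of the longest coding transcript in the annotation, as CPM per kilobase in WT. Guca1b was highest at 686 ± 27.0 (SD, n = 3), followed by Guca1a at 551 ± 72.2, Gnb5 at 269 ± 30.7, Rgs9bp at 181 ± 5.01, Rgs9 at 150 ± 7.31, Gucy2e at 83.5 ± 2.34 and Gucy2f at 39.4 ± 1.38. No 2 neighbours in this order overlapped over the WT libraries, so on this scale the activators stood above the RGS9 complex and the cyclases came last. With the shortest coding transcript in place of the longest, Rgs9 (299 ± 14.5) and Gucy2e (191 ± 5.34) moved above Rgs9bp (181 ± 5.01), so the order of these 3 depends on the transcript. On that scale Gucy2e and Rgs9bp overlapped over the WT libraries, as did Guca1a (503 to 634) and Gnb5 (442 to 539), while Guca1b stayed first and Gucy2f last. In the libraries labelled KO, with the longest transcript, Guca1b was at 893 ± 156 and Gucy2f at 32.5 ± 5.07 CPM per kilobase (SD, n = 5).

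Ratios of partners within a library do not depend on how libraries are scaled. They were not corrected for GC content, which was 52.6% for Gucy2e, 42.0% for Gucy2f, 55.7% for Guca1a and 55.9% for Guca1b. With that correction and all libraries, the log2 fold changes of these genes were -0.08, -0.07, 0.21 and 0.17. The same genes without it were at 0.04, -0.29, 0.41 and 0.37. The part of GC content in the ratios was not tested. The ratio of Gucy2e to Gucy2f counts was 2.15, 2.20 and 2.19 in WT 1 to WT 3 and 2.40, 2.15, 2.78, 3.26 and 3.30 in KO 2 to KO 6. It was nearly constant over WT and KO 3 and stood higher in KO 4 to KO 6, with KO 2 between. The ratio of Guca1b to Gucy2f was 3.43, 3.74 and 3.58 in WT and 4.07, 3.95, 6.37, 7.48 and 7.33 in KO 2 to KO 6. Here every library labelled KO was above every WT library, as held for the ratio to Gucy2f of 22.2% of all tested genes, and KO 4 to KO 6 were far above KO 2 and KO 3. The ratio of Guca1a to Guca1b was 0.397, 0.464 and 0.398 in WT and 0.399 to 0.466 in the libraries labelled KO, with overlap. The ratio of Guca1a to Gucy2e ran from 0.633 to 0.791 over WT, measured 0.727 in KO 2 and 0.824 in KO 3, and reached 0.912 to 1.03 over KO 4 to KO 6.

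Within the RGS9 complex, the ratio of Rgs9 to its anchor Rgs9bp was 0.433, 0.424 and 0.451 in WT 1 to WT 3 and 0.537, 0.467, 0.535, 0.519 and 0.553 in KO 2 to KO 6. Every library labelled KO was above every WT library, as held for the ratio to Rgs9bp of 7.06% of all tested genes. The mean was 0.436 ± 0.0141 in WT (SD, n = 3) and 0.522 ± 0.0332 in KO (SD, n = 5), a difference of 0.26 on the log2 scale that was 0.20 for KO 2 and KO 3 and 0.30 for KO 4 to KO 6. The ratio of Rgs9 to Gnb5 was 0.769 to 1.01 in WT and 0.975 to 1.33 in the libraries labelled KO, with overlap.

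**Figure D3:**
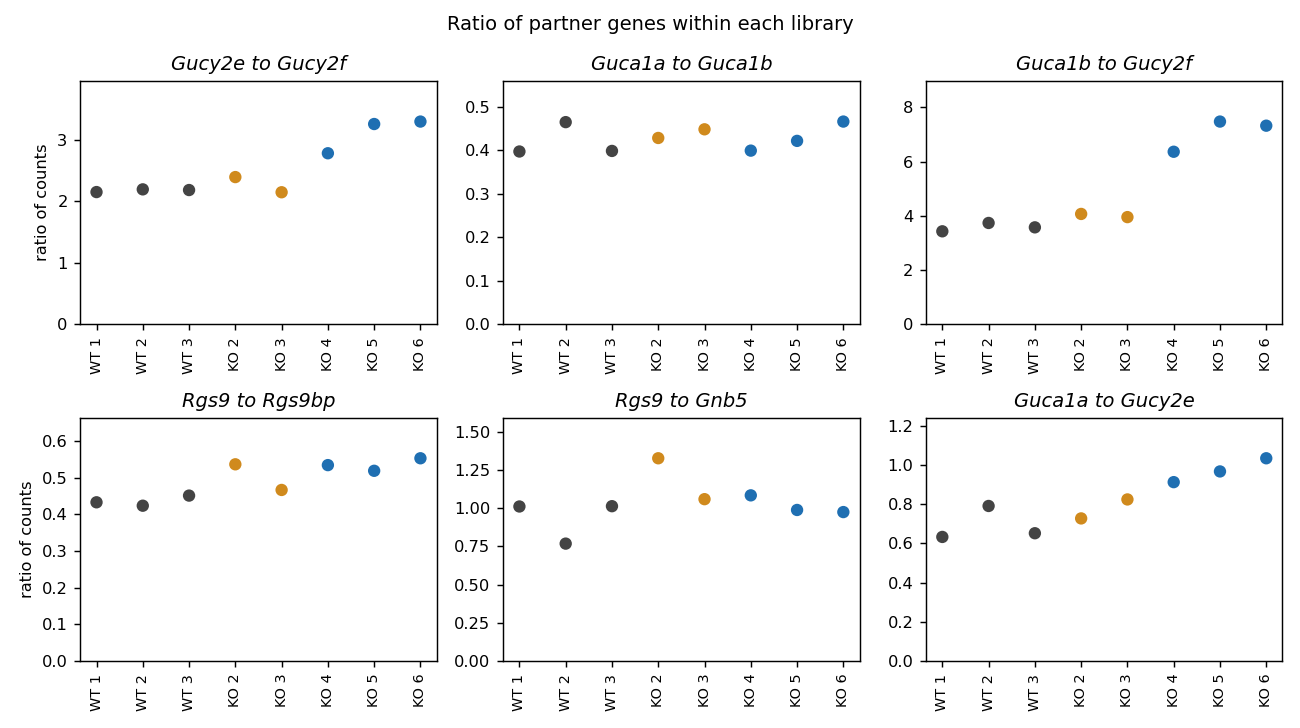
Ratio of the counts of 2 genes (y axis, from 0) in every library (x axis), with WT in dark grey, KO 2 and KO 3 in orange and KO 4 to KO 6 in blue. Rgs9 to Rgs9bp is above WT in every library labelled KO, Guca1b to Gucy2f reaches 6.37 to 7.48 in KO 4 to KO 6, and Guca1a to Guca1b shows no separation. The ratios are not corrected for GC content.

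The other genes of the pathway were described from 5 lists. Of the 24 genes of the phototransduction cascade, 2 rose and 4 fell with all libraries, and 18 were not called; the median log2 fold change was -0.0034, against 0.0007 over all tested genes, of which 4.74% were called higher and 2.84% lower. The median over the 7 cyclase and RGS9 genes was 0.08. The risers were Sag, the rod arrestin (log2 fold change 0.87), and Pde6c, the catalytic subunit of the cone phosphodiesterase (0.51). The 4 that fell were Gngt1 (-0.90) and Gngt2 (-0.60), the rod and cone transducin gamma subunits, Gnat2, the cone transducin alpha subunit (-0.47), and Pde6h, the inhibitory subunit of the cone phosphodiesterase (-0.74). Their edgeR adjusted p-values ran from 0.00478 to 0.0318. After correction for GC content all 6 were still called in the same direction, Gngt1 at -0.47, and Pde6a (0.34) and Pde6g (-0.39) of the rod phosphodiesterase were called as well, with edgeR adjusted p-values of 0.0461 and 0.0169. Transducin is the substrate of the RGS9 complex. Neither of its beta subunits (Gnb1 0.12, Gnb3 0.79) nor the rod alpha subunit Gnat1 (0.36) was called, with edgeR adjusted p-values of 0.746, 0.0695 and 0.164. Recoverin (Rcvrn), a photoreceptor calcium sensor related to the GCAPs, measured 1002, 1095 and 931 CPM over WT 1 to WT 3, against 747 to 916 CPM in the libraries labelled KO, below WT throughout, as for 10.1% of all tested genes. Its log2 fold change was -0.27 (SE 0.11, edgeR adjusted p-value 0.129), -0.20 for KO 2 and KO 3 (edgeR adjusted p-value 0.497), and -0.42 after correction for GC content, where it was called (edgeR adjusted p-value 0.0402).

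A list of 5 genes held trafficking partners of the cyclases, phosphodiesterase and transducin, together with Rd3l, a relative of the partner Rd3. Of these 5 genes, 0 rose and 1 fell. Rd3 itself, which binds and restrains the cyclases on their way to the outer segment, was at 194 to 220 CPM in WT and 205 to 253 CPM in the libraries labelled KO, with overlap and a log2 fold change of 0.19 (SE 0.10, edgeR adjusted p-value 0.247). The gene that fell was the related Rd3l, which measured 89.6, 107 and 100 CPM over WT 1 to WT 3, against 70.7, 79.3, 65.8, 66.8 and 60.3 CPM over KO 2 to KO 6. Every library labelled KO was below WT, as for 10.1% of all tested genes, with a log2 fold change of -0.53 (SE 0.10) and an edgeR adjusted p-value of 0.0170. It was -0.40 for KO 2 and KO 3, where it was not called (edgeR adjusted p-value 0.116), and -0.34 after correction for GC content, where it was called (edgeR adjusted p-value 0.0192).

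Of 6 other RGS proteins of the R7 family and their anchors, 1 rose and 0 fell. This was Gpr179, which holds RGS proteins at the bipolar cell dendrites, with a log2 fold change of 0.48 (SE 0.12, edgeR adjusted p-value 0.0443) that was 0.26 after correction for GC content and then not called (edgeR adjusted p-value 0.0963). With all libraries, Gpr158, another anchor, was called after that correction (0.29, edgeR adjusted p-value 0.0180) but not before it (0.24, edgeR adjusted p-value 0.0676). Without the correction, edgeR also called Gpr158 in 1 fit with 1 library left out and in 1 with 2 libraries labelled KO left out. Rgs7, a relative of Rgs9 that also pairs with Gnb5, was at 43.9, 47.2 and 44.8 CPM in WT and 32.9 to 39.3 CPM in the libraries labelled KO. Every library labelled KO was below WT, the opposite side from Rgs9, as for 10.1% of all tested genes. The log2 fold change of Rgs7 was -0.29 (SE 0.08, edgeR adjusted p-value 0.0597), which did not pass. The other RGS genes of this list differed in sign, Rgs6 at 0.29 and Rgs11 at -0.25, with edgeR adjusted p-values of 0.147 and 0.512. Of the 6 other guanylate cyclases that were in the table, of 9 listed, 0 were called, and of 11 other neuronal calcium sensors 0 were called, at medians of 0.18 and -0.08; after correction for GC content the counts were 0 and 2 (Rcvrn and Kcnip2, both lower). The count over the lists depended on the libraries included, as did that over all genes: 8 of 51 genes (Rcvrn is in 2 lists) were called with all libraries, 1 without WT 1, WT 2, WT 3 or KO 4 (Pde6h was called in each fit), 4 without KO 5, 5 without KO 6, 16 without KO 2 and 20 without KO 3. Over all tested genes, 1529 were called with all libraries, 132 to 365 without WT 1, WT 2, WT 3 or KO 4, 388 without KO 5, 531 without KO 6, 2781 without KO 2 and 3992 without KO 3. For KO 2 and KO 3 against WT, 2 of the 51 were called, Pde6h (-0.77) and the cone arrestin gene Arr3 (-1.33), where 0.891% of all tested genes were called, and KO 4 to KO 6 against WT gave 35 of 50, where 42.8% were.

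**Figure D4:**
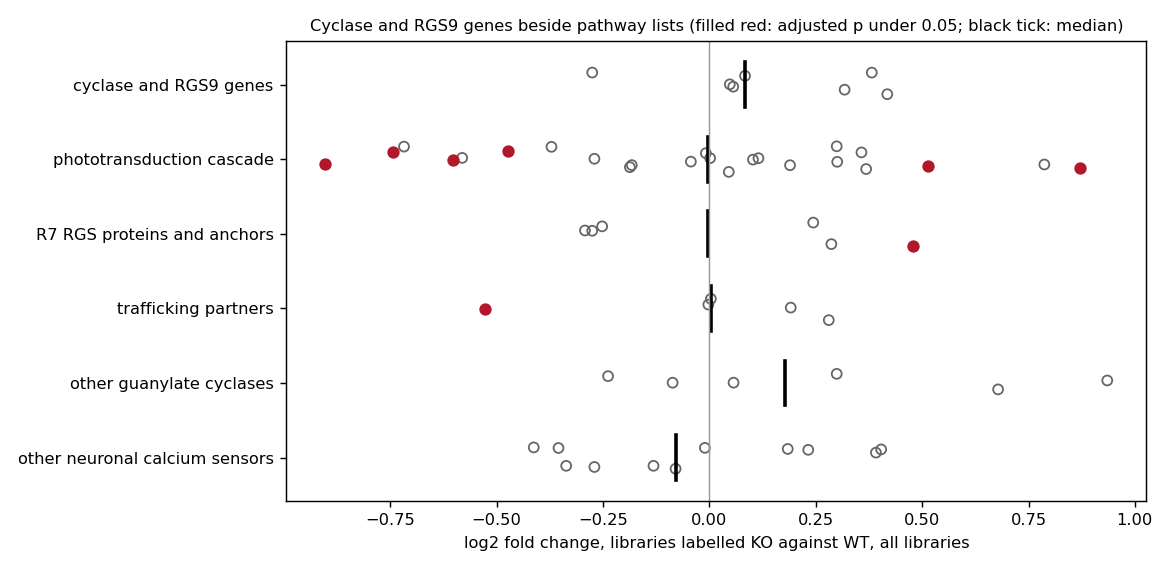
Log2 fold change of the libraries labelled KO against WT with all libraries (x axis) for the 7 cyclase and RGS9 genes and the genes of 5 pathway lists (rows); each circle is a gene, red circles passed an adjusted p-value under 0.05 in edgeR, and black ticks are medians. None of the 7 genes is red, and of the lists the phototransduction cascade holds 6 red genes.

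The genes whose log2 CPM followed each of the 7 most closely over the 8 libraries were taken from 11256 genes by Pearson correlation, as a description. For Rgs9 they were Ano6 (0.993) and Nf2 (0.990), for Rgs9bp Ppp1r7 (0.967) and Zfpm2 (0.960), and for Gnb5 Pex10 (0.977) and Tcta (0.969). For Gucy2e they were Tspan33 (0.959) and Scamp5 (0.953), and for Gucy2f Taf13 (0.995) and Eri2 (0.990). For Guca1b they were Yif1b (0.996) and Zfp574 (0.994). For Guca1a they were Polr2a (0.981) and Aipl1 (0.978), the latter a chaperone of the phosphodiesterase and a gene of the trafficking list. These 8 points share library, depth and the position of KO 4 to KO 6, and the values are the 2 highest of 11256 for each gene. Among the 7 genes, Gucy2f had negative correlations with Guca1a (-0.837) and Guca1b (-0.837), and Gnb5 was closer to Guca1a (0.851) than to Rgs9 (0.351).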

How the data were processed

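Retinal RNA of 3 WT and 5 Kv8.2 KO mouse libraries was sequenced, and the authors deposited whole-number counts for 26824 genes, with no normalization. Trim Galore, Salmon 1.10.2, DESeq2 and the build GRCm38 are named, without roles, in the submitters' processing notes; if the counts came from Salmon they are rounded estimates. Annotation and strand setting are not given in the sources used here. Every gene has a total of at least 16 counts, and 22121 matched GENCODE M21 (GRCm38) by Ensembl identifier. The labels' protocols say that retinas came from individual mice; p-values measure only the spread between these libraries.

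Counts were tested with edgeR 4.0.16 (R 4.3.3): filterByExpr, TMM scaling, the quasi-likelihood test on all 8 libraries and Benjamini-Hochberg adjustment over 20167 genes, called under 0.05. SE came from the fold change and F statistic, and 95% intervals from the test's t quantile. Log2 CPM used a prior count of 2. GC content was corrected by a smooth curve per library (lowess span 0.3). Promoters came from RefSeq (GRCm38.p6). The named genes were the 7 genes, Kcnv2, called list genes, list genes that a count or level turned on, and for each of the 7 the 2 genes most like it. Some were chosen after their values were seen. From the lists these were Gnat1, Gnb1, Gnb3, Arr3, Rcvrn, Rd3, Rgs6, Rgs7, Rgs11, Gpr158, Pde6a, Pde6g and Kcnip2. From the markers they were the sum of 5 rod markers and the single genes in it. The genes and lists were chosen with earlier results of these data known. DESeq2 1.42.0, limma 3.58.1, other scalings and filters, and fits without libraries were alternatives. The edgeR and GC steps were tested on simulated counts. Replicate numbers 2 and 3 occur in both groups, but no label says that they pair mice. No 2 libraries of a group agreed within sampling noise. Ratios to 1 further gene are not reported here.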

Additional observations from a re-analysis of the deposited data

Results flagged for a closer look

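In 33 values of the 5 libraries labelled KO, the gap between an end library and its neighbour was compared with the whole range. The limit of 0.71 was passed by 7, where about 1.7 would be expected of independent values. These values share the same 5 libraries, and some share genes, so the 7 cannot be read against chance. KO 2 was the high library for Rgs9bp (1451 CPM, gap 0.746 of the range), Kcnv2 (584.9 CPM, 0.738), the summed Muller glia markers (4655 CPM, 0.728) and the summed ganglion cell markers (1031 CPM, 0.730). KO 3 was the low library for Gpr179 (141 CPM, 0.789) and the summed endothelial markers (23.1 CPM, 0.741), and the high one for the 14 lens markers (43740 CPM, 0.995). Lens markers summed to 25.9 to 1447 CPM in WT and to at most 212 CPM in the other libraries labelled KO. Without lens and mitochondrial genes, none of the 7 cyclase and RGS9 genes was called, as with them.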

How the results depend on the processing

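The count of called genes (1529), of called cyclase and RGS9 genes (0) and of called list genes (8) depended on the tool and the libraries. DESeq2 called 3034, 3 and 16, and limma voom 8248, 4 and 34. KO 2 and KO 3 against WT gave 180, 0 and 2, and with GC correction, chosen after seeing the data, 132, 0 and 2. Other scalings and filters, and GC correction with all libraries, stayed within 1.5 times of these counts, except that library size alone gave 566 genes higher and 787 lower, where TMM gave 956 and 573. Leaving out 1 library gave 132 to 3992, 0 to 3 and 1 to 20, and leaving out 2 libraries labelled KO gave 118 to 8416, 0 to 4 and 1 to 35.

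Over 32 alternatives each, Guca1a, Guca1b and Rgs9 were above 0 and Gucy2f below 0 in every one, and they were called in 4, 7, 7 and 3. The other 3 genes were called in none and changed sign in some. With 1 or 2 libraries left out, Gucy2e ran from -0.016 to 0.1251, Rgs9bp from -0.0158 to 0.1121 and Gnb5 from -0.0159 to 0.1901. Below 0 were Gucy2e without KO 2 and KO 6, Rgs9bp without KO 2 (-0.0054), without KO 2 and KO 5 and without KO 2 and KO 6 (-0.0017), and Gnb5 without KO 5 and KO 6. Gucy2e was -0.0065 for KO 2 and KO 3, -0.0006 with the replicate block, -0.0005 with the crossed block, -0.0764 with GC correction and -0.0617 with it for KO 2 and KO 3. Gnb5 was -0.0448 for KO 2 and KO 3, -0.0928 with the block and the crossed block, -0.0959 with no block, -0.0077 with GC correction and -0.0878 with it for KO 2 and KO 3. The cause was not tested.

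Replicate numbers 2 and 3 do not pair the libraries by any label, and the deviations of same-numbered libraries had a correlation of -0.19 over genes. In WT 2, WT 3, KO 2 and KO 3, the replicate block gave 52, 0 and 1 calls against 14, 0 and 0 with no block, and the pairing crossed, chosen after seeing the data, gave 527, 0 and 4.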
